A study of Homo sapiens with 6 samples.

Results

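RNA of the PAF1 complex and of the RPRD proteins, which travel with RNA polymerase II, was measured in KHOS and U-2OS osteosarcoma cells after CDK11 knockdown. The 8 genes were 5 subunits of the PAF1 complex (LEO1, PAF1, CTR9, CDC73 and RTF1) and 3 RPRD genes (RPRD1A, RPRD1B and RPRD2). Every probe set that the platform annotation assigns to 1 of these symbols was taken, which gave 20 of 54675 probe sets. Of these, 16 had a highest value above 100 on the linear scale (6.64 on the log2 scale) and were kept, with at least 1 for each of the 8 genes. Across the array 16397 probe sets passed this limit. LEO1 and RPRD1A were chosen by their difference between CDK11 siRNA and nonspecific siRNA, and the other 6 genes because they belong to the same complex or family. The values of that comparison are therefore a description and carry no test.

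The PAF1 complex binds the elongating polymerase and helps it to pass through chromatin. It is also needed for the ubiquitination of histone H2B and for the histone methylation that follows along transcribed genes. The RPRD proteins bind the phosphorylated tail of the largest polymerase subunit and bring tail phosphatases to it. CDK11, the kinase that was depleted, acts in transcription and in the splicing of pre-mRNA.

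KHOS and U-2OS are established human osteosarcoma lines. Each line was left untransfected, transfected with a nonspecific siRNA at 40 nM or transfected with a CDK11 siRNA at 40 nM, with a transfection time of 48 h in the methods. RNA of 3 flasks was pooled before labelling, so each of the 6 groups is 1 array and has no replicate. The values are log2 signals, and a difference of 1 on this scale is a doubling of the signal.

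The 5 probe sets shared by CDK11A and CDK11B were lower after CDK11 siRNA than after the nonspecific one in both lines. They kept 20.0% to 40.1% of their signal in KHOS and 14.8% to 86.6% in U-2OS. The brightest, 212401_s_at, kept 20.6% and 16.0%, and 3 of the 5, among them those that kept most in U-2OS (207428_x_at and 210474_s_at), lay under the signal limit. The median log2 signal of the 6 arrays lay between 2.92 and 2.98. Of 10 osteoblast and mesenchymal markers, 9 had a probe set and 4 were above the signal limit (COL1A1, RUNX2, SPARC and VIM), with a summed linear signal of 36304 to 55185 over the arrays. None of the 4 blood markers with a probe set passed the limit, nor did the endothelial marker PECAM1. Their highest log2 values were 3.31 and 3.01. The epithelial marker EPCAM reached 8.997 and was higher in KHOS, and the summed signal of the 3 epithelial markers ran from 44.6 to 520 over the arrays. The osteoblast genes SP7, ALPL, SPP1, IBSP and COL1A2 did not pass the limit.

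The promoters of LEO1 and RPRD1A are shown because these genes had the largest downward differences of the set after CDK11 knockdown. Each runs from 250 bases before to 50 bases after the RefSeq transcription start on GRCh38.p14 and reads in the direction of the gene. LEO1 lies on the minus strand at chr15:51971729-51972028, and RPRD1A on the minus strand at chr18:36067510-36067809. Capitals mark the matches to the motifs that were searched for on both strands, so a match on the minus strand appears as its reverse complement.
LEO1: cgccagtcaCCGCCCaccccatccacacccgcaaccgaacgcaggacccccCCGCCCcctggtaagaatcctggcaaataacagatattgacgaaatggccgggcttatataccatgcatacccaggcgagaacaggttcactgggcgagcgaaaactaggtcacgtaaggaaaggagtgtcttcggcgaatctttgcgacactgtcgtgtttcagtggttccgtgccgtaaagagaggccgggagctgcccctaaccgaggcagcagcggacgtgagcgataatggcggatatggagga
RPRD1A: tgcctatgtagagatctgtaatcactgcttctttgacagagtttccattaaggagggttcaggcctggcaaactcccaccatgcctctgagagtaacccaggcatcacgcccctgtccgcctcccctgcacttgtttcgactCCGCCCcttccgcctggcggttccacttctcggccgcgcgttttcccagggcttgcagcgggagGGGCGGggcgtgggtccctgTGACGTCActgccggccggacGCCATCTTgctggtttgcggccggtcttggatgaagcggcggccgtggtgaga

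The letters searched were GGGCGG (the SP1 box), CCAAT (the CCAAT box), TATAAA (the TATA box), TGACGTCA (the cyclic AMP response element), GCATGCGC (the NRF1 core), ACTTCCGG (an ETS site), AAGATGGC (a YY1 site) and GGCGGGAA (an E2F site). GGGCGG can overlap GGCGGGAA. The LEO1 window held GGGCGG 2 times, on the strand opposite to the gene, at -241 and -199 from the start. The RPRD1A window held GGGCGG at -108 on the opposite strand and at -44 on its own, TGACGTCA at -24 and AAGATGGC on the opposite strand at -3. The only motif found in both windows was thus GGGCGG, which stood in 45.0% of 35116 promoters of the same length. TGACGTCA stood in 1.85% of them and AAGATGGC in 2.89%. Of the 7 members with a promoter in the table, 6 held GGGCGG (all but RPRD2), RPRD1A and RPRD1B held AAGATGGC, and PAF1 and RPRD2 held CCAAT, which stood in 34.6% of all promoters. RTF1 held GCATGCGC (3.05%) and CTR9 held ACTTCCGG (4.14%). None of the 7 held TATAAA (11.5%) or GGCGGGAA (3.16%). CDC73 had no entry. A match is a stretch of letters and was not tested as a binding site.

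Each CDK11 siRNA array was first set against the nonspecific siRNA array of the same line. A probe set counted as lower when its log2 difference lay more than 3 SD below the mean difference of all 16397 probe sets of that line. The bound was -1.35 in KHOS and -1.07 in U-2OS. LEO1 and RPRD1A were lower in both lines, and the other 6 genes stayed inside the bounds. In KHOS 3 of the 16 probe sets were lower, against 0.732% of all probe sets, and in U-2OS 4 of 16 were lower, against 0.89%. No probe set of the members was higher past the bound in either line. Since 2 of the genes were chosen by this comparison, nothing is read from these shares. In RNA of whole cultures, fewer cells that express a gene and less RNA per cell cannot be told apart.

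LEO1, which pairs with PAF1 inside the complex, was measured by 1 probe set, 235096_at. In KHOS its log2 signal was 10.27 untransfected, 10.27 after nonspecific siRNA and 8.91 after CDK11 siRNA. In U-2OS it was 8.06, 8.17 and 6.09 in the same order. The 2 control arrays of each line thus lay close together, and the CDK11 siRNA array stood apart below them. Against nonspecific siRNA the difference was -1.36 in KHOS (38.8% of the control signal, a z-score of -3.04) and -2.08 in U-2OS (23.6%, a z-score of -5.76). The U-2OS value was number 7 from the lowest of 16397. In KHOS LEO1 lay only just past the bound, and with a signal limit of 50 its z-score was -2.92 and the call was lost. In U-2OS its CDK11 siRNA signal was under the signal limit.

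**Figure D1:**
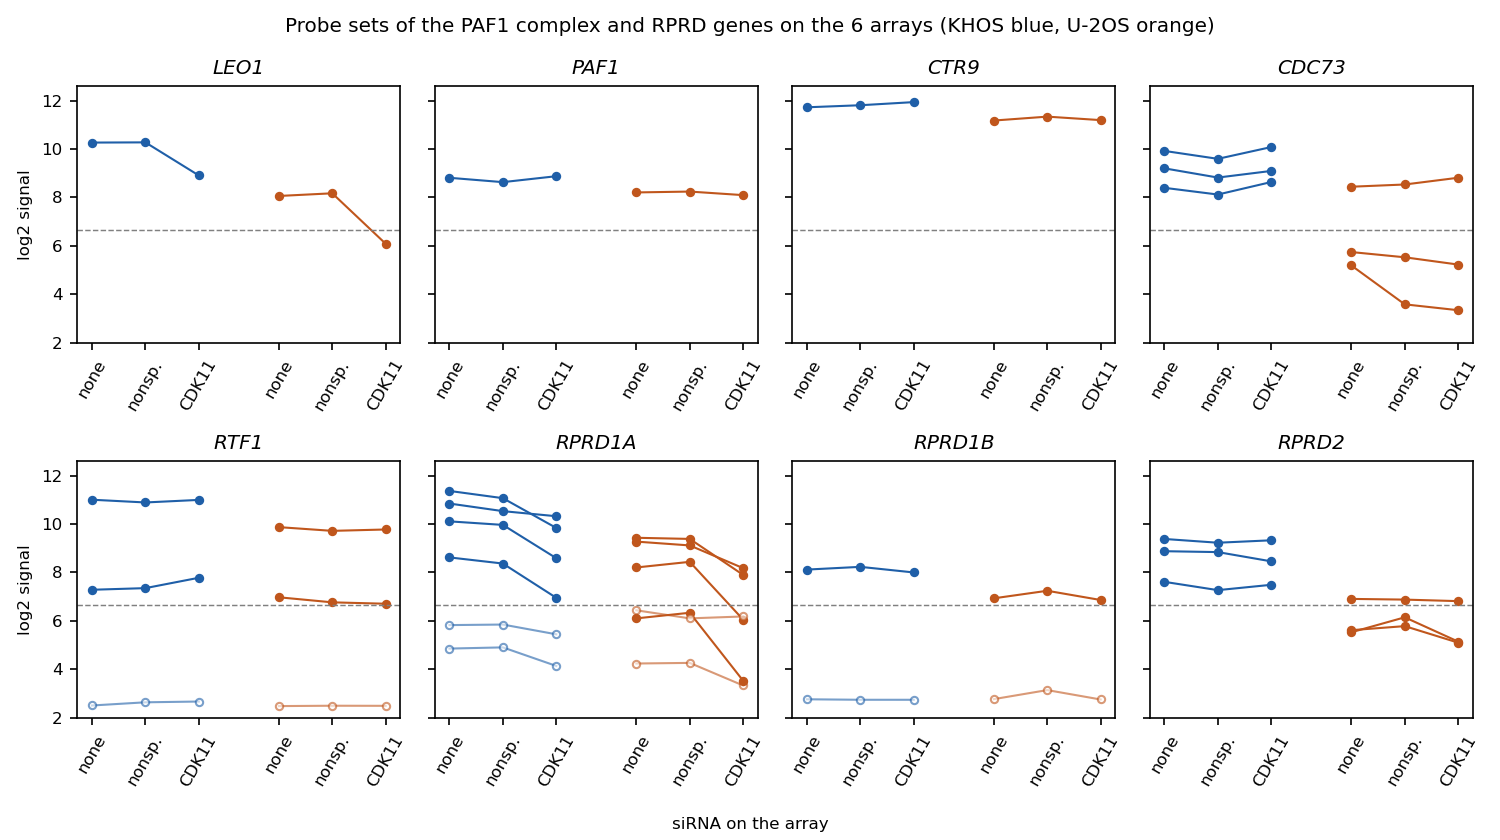
Log2 signal (y axis) of all 20 probe sets of the 8 genes on the 6 arrays (x axis, siRNA; "none" is untransfected), with KHOS in blue and U-2OS in orange. Each point is 1 array and lines join the arrays of a probe set; open symbols are the 4 probe sets under the signal limit of 6.64 (dashed), and with CDK11 siRNA LEO1 lies at 8.91 in KHOS and 6.09 in U-2OS while PAF1 and CTR9 stay near their control levels.

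RPRD1A, which binds the polymerase tail, had 6 probe sets, of which 4 passed the signal limit. The brightest, 225953_at, read 11.36 untransfected, 11.07 after nonspecific siRNA and 9.84 after CDK11 siRNA in KHOS, against 9.43, 9.38 and 7.90 in U-2OS. Probe set 222558_at read 8.62, 8.37 and 6.95 in KHOS, against 6.11, 6.34 and 3.53 in U-2OS. The array with CDK11 siRNA was the lowest of its line for each of these probe sets, in both lines. Probe set 222559_s_at read 10.11, 9.96 and 8.59 in KHOS, against 8.21, 8.44 and 6.05 in U-2OS, and 218209_s_at read 10.84, 10.53 and 10.32 in KHOS, against 9.27, 9.12 and 8.18 in U-2OS. All 4 probe sets were thus lowest with CDK11 siRNA, by unequal amounts.

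In U-2OS the RPRD1A differences from nonspecific siRNA were -2.81 for 222558_at, -2.38 for 222559_s_at, -1.48 for 225953_at and -0.94 for 218209_s_at. All 3 U-2OS signals of 222558_at lay under the signal limit, and it was kept through its KHOS signals, so the size of its U-2OS difference is uncertain. The U-2OS controls of the other 3 probe sets were above the limit, but 222559_s_at fell under it after CDK11 siRNA (6.05). In KHOS the differences were -1.41, -1.37, -1.23 and -0.21 in the same order. The probe sets of this gene therefore agreed in sign in both lines and spread over 1.204 log2 units in KHOS and 1.87 in U-2OS. Probe sets 222558_at and 222559_s_at were designed from the same source sequence and are not separate evidence. The 2 probe sets under the limit gave -0.77 (1555202_a_at) and -0.40 (228566_at) in KHOS, against -0.93 and 0.08 in U-2OS.

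**Figure D2:**
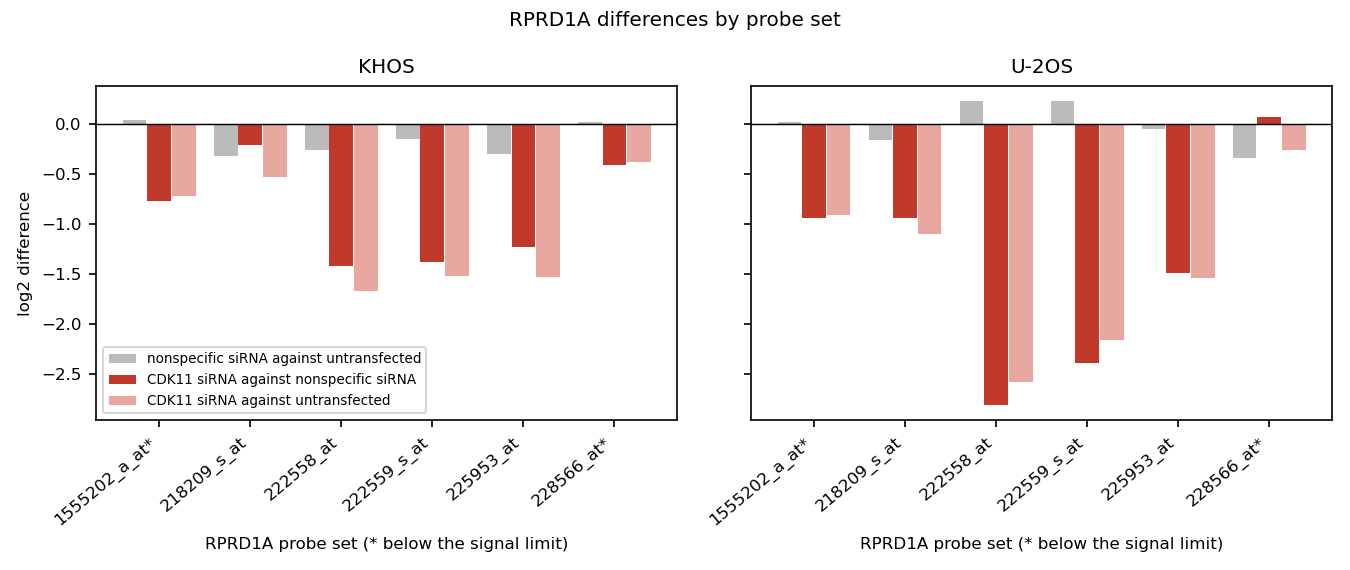
Log2 difference (y axis) of the 6 RPRD1A probe sets (x axis) in KHOS and U-2OS for 3 comparisons of single arrays, so the bars have no error bars; asterisks mark the 2 probe sets under the signal limit. The bars for CDK11 siRNA against nonspecific siRNA reach -1.41 in KHOS and -2.81 in U-2OS at 222558_at and only -0.21 and -0.94 at 218209_s_at.

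Near the bound, the members just past it in KHOS were LEO1 at -1.36 and RPRD1A 222559_s_at at -1.37, and the member just short of it was RPRD1A 225953_at at -1.23. In U-2OS RPRD1A 225953_at at -1.48 was just past it, and RPRD2 235415_at at -1.002 and RPRD1A 218209_s_at at -0.94 were just short of it. The KHOS calls thus rested on small margins, and those of U-2OS on larger ones. In KHOS RPRD1A was not past the bound when its brightest probe set or the mean of its kept probe sets stood for the gene.

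The other subunits of the PAF1 complex did not follow LEO1. PAF1, the subunit that gives the complex its name, read 8.81 untransfected, 8.63 after nonspecific siRNA and 8.88 after CDK11 siRNA in KHOS, against 8.21, 8.24 and 8.10 in U-2OS. CTR9, the large scaffold subunit, read 11.72, 11.81 and 11.94 in KHOS, against 11.17, 11.34 and 11.19 in U-2OS. Their differences from nonspecific siRNA were 0.25 and 0.13 in KHOS, against -0.15 and -0.14 in U-2OS, well inside the bounds. RTF1, a subunit needed for the ubiquitination of H2B, read 11.002, 10.89 and 10.99 in KHOS, against 9.87, 9.72 and 9.77 in U-2OS at its brighter probe set, 212301_at. Its dimmer probe set, 212302_at, read 7.29, 7.35 and 7.78 in KHOS, against 6.98, 6.77 and 6.71 in U-2OS. RTF1 probe set 212302_at was thus 0.43 above nonspecific siRNA in KHOS and 0.06 below it in U-2OS (-0.06). A further RTF1 probe set, 230832_at, stayed between 2.49 and 2.67 on all arrays, under the limit.

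CDC73 encodes parafibromin, a subunit that is also a tumour suppressor of the parathyroid. Probe set 218578_at read 9.92 untransfected, 9.59 after nonspecific siRNA and 10.08 after CDK11 siRNA in KHOS, against 8.44, 8.54 and 8.81 in U-2OS. Probe set 235196_at read 9.20, 8.82 and 9.10 in KHOS, against 5.75, 5.53 and 5.23 in U-2OS. Probe set 229828_at read 8.40, 8.12 and 8.64 in KHOS, against 5.19, 3.59 and 3.35 in U-2OS. In KHOS all 3 were higher after CDK11 siRNA than after the nonspecific one, by 0.27 to 0.52, and none reached the bound. In U-2OS they did not share a sign, with 0.28 for 218578_at, -0.24 for 229828_at and -0.30 for 235196_at. In KHOS the nonspecific siRNA array lay below the untransfected array at all 3, with differences of -0.38 to -0.28. Against untransfected cells the KHOS differences after CDK11 siRNA did not share a sign, with 0.16 (218578_at), 0.24 (229828_at) and -0.11 (235196_at).

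SKIC8, formerly WDR61, is a further subunit of the complex that was listed as a pathway gene. Its 3 kept probe sets differed from nonspecific siRNA by -0.20 to -0.0086 in KHOS and by -0.07 to 0.08 in U-2OS. Like PAF1 and CTR9, SKIC8 stayed far inside both bounds.

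Of the RPRD genes, only RPRD1A was past the bound in either line. RPRD1B, its close paralog, read 8.12 untransfected, 8.23 after nonspecific siRNA and 8.001 after CDK11 siRNA in KHOS, against 6.93, 7.25 and 6.86 in U-2OS. The RPRD1B difference from nonspecific siRNA was -0.23 in KHOS and -0.38 in U-2OS, in the direction of RPRD1A but inside the bounds. Its second probe set, 230801_at, lay under the limit at 2.75 to 3.15. RPRD2, the largest RPRD protein, read 9.38, 9.23 and 9.33 in KHOS, against 6.91, 6.88 and 6.82 in U-2OS at 212553_at. RPRD2 probe set 226527_at read 8.88, 8.84 and 8.46 in KHOS, against 5.62, 5.79 and 5.10 in U-2OS, and 235415_at read 7.61, 7.27 and 7.49 in KHOS, against 5.53, 6.15 and 5.15 in U-2OS. All 3 RPRD2 probe sets were lower after CDK11 siRNA than after the nonspecific one in U-2OS (-0.06, -0.68 and -1.002). In KHOS only 226527_at was lower (-0.38), and the others read 0.10 and 0.22 above. The U-2OS signals of 226527_at and 235415_at were all under the signal limit.

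Over the 11 kept probe sets of the 6 genes other than LEO1 and RPRD1A, the median difference from nonspecific siRNA was 0.22 in KHOS, with 9 above 0 and 2 below. In U-2OS it was -0.15, with 2 above 0 and 9 below. The range was -0.38 to 0.52 in KHOS and -1.002 to 0.28 in U-2OS. The median over all 16397 probe sets was 0.0096 in KHOS and 0.014 in U-2OS. Over all 16 kept probe sets of the members the medians were 0.10 in KHOS and -0.34 in U-2OS. Set against untransfected cells, the 11 probe sets had a KHOS median of -0.008 after CDK11 siRNA, with 5 above 0 and 6 below. In U-2OS that median was -0.11, with 2 above 0 and 9 below, and these 9 again included the same CDC73 and RPRD2 probe sets. For nonspecific siRNA against untransfected cells their median was -0.16 in KHOS, with 3 above 0 and 8 below. In U-2OS it was 0.04, with 6 above 0 and 5 below.

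**Figure D3:**
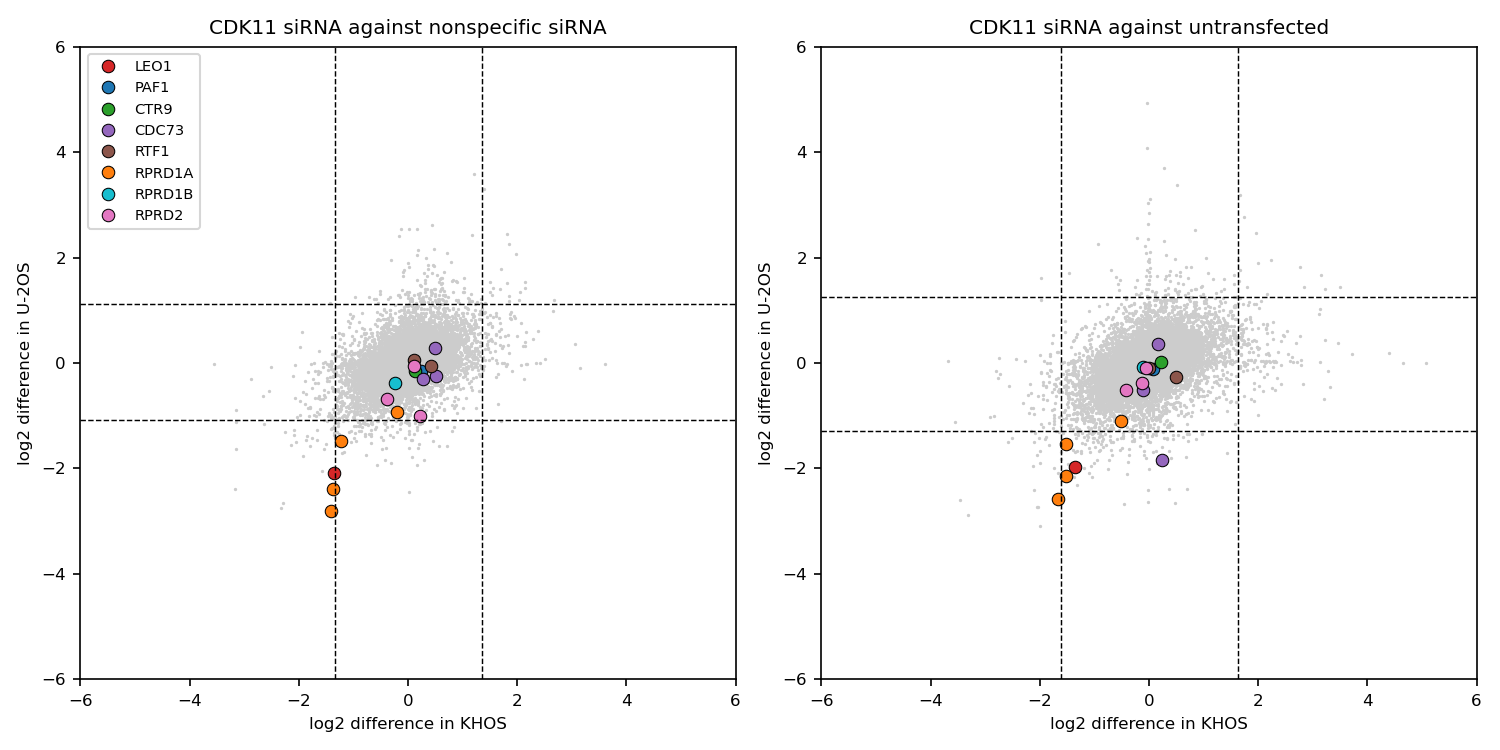
Log2 difference in KHOS (x axis) against U-2OS (y axis) for CDK11 siRNA against nonspecific siRNA (left) and against untransfected cells (right), with the 16397 kept probe sets in grey, the 16 kept member probe sets in colour and the bounds of 3 SD as dashed lines. On the left LEO1 and 2 RPRD1A probe sets lie past both lower bounds (-1.35 and -1.07), and on the right 1 RPRD1A probe set does; both panels use the same CDK11 siRNA arrays.

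The nonspecific siRNA was then set against untransfected cells, which gives the background of transfection. It shares arrays with the comparison that chose LEO1 and RPRD1A. LEO1 differed by 0.01 in KHOS and 0.11 in U-2OS. The 4 RPRD1A probe sets differed by -0.31 to -0.15 in KHOS and by -0.16 to 0.23 in U-2OS, so neither gene came near the bounds. None of the 16 probe sets was lower past the bound in KHOS, where 0.512% of all probe sets were. In U-2OS 1 was lower, CDC73 229828_at, with a difference of -1.60 and a z-score of -3.87, against 0.939% of all probe sets. The other CDC73 probe sets differed by 0.09 (218578_at) and -0.22 (235196_at) in U-2OS. The low value of 229828_at was thus not shared by the other probe sets of the gene, and all 3 of its U-2OS signals lay under the limit. RPRD2 235415_at was 0.62 higher with nonspecific siRNA in U-2OS, inside the bound of 1.17.

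Against untransfected cells, LEO1 after CDK11 siRNA differed by -1.36 in KHOS and by -1.97 in U-2OS. Its z-score was -2.52 in KHOS, short of the bound, and -4.59 in U-2OS. In KHOS 1 probe set of the members was lower past the bound, RPRD1A 222558_at at -1.67, against 0.604% of all probe sets. In U-2OS 5 were lower, against 0.951%: LEO1, 3 of RPRD1A (-2.57, -2.15 and -1.53) and CDC73 229828_at (-1.85). The LEO1 differences in KHOS were alike with either control, and the bound was wider here (-1.61) than against nonspecific siRNA (-1.35). RPRD1A 218209_s_at gave -0.52 in KHOS and -1.10 in U-2OS. PAF1 (0.07 and -0.11), CTR9 (0.21 and 0.02), RPRD1B (-0.12 and -0.07) and RTF1 212301_at (-0.008 and -0.10) stayed close to 0 in KHOS and U-2OS. Farther from 0 but inside the bounds were RTF1 212302_at (0.49 and -0.27) and RPRD2 226527_at (-0.42 and -0.51). RPRD2 235415_at gave -0.12 and -0.38, and RPRD2 212553_at -0.05 and -0.09. CDC73 218578_at gave 0.16 and 0.37, and CDC73 235196_at -0.11 and -0.52. The CDK11 siRNA arrays are those of the comparison with nonspecific siRNA, so these values do not stand apart from it.

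The 2 lines were compared over the 3 treatments. The choice of LEO1 and RPRD1A did not use the line difference. It did use the CDK11 siRNA and nonspecific siRNA arrays, which also enter the fit. The fit was made with limma, with the treatment as a block and 2 residual degrees of freedom, and p-values were two-sided and adjusted by Benjamini-Hochberg over 16397 probe sets. The 3 arrays of a line are 3 treatments of 1 line, so p measures the spread of the line difference over treatments and not over cultures. Of the 16 kept probe sets, 5 passed the signal limit on KHOS arrays alone. A higher KHOS signal was built into their selection, so they are left out of the counts. The other 11 passed in both lines and held at least 1 probe set of each of the 8 genes. All 11 were higher in KHOS with an adjusted p under 0.05 from limma, against 39.6% of all probe sets. Every KHOS array lay above every U-2OS array for these 11, against 40.3% of all probe sets. Both shares include probe sets that passed in 1 line alone. The line differences of the 11 ran from 0.59 (CTR9) to 2.44 (RPRD2 212553_at). The median line difference of all probe sets was 0.0985. EPCAM also differed between the lines, with 8.81 to 8.997 in KHOS and 5.15 to 5.89 in U-2OS, while the other 2 epithelial markers stayed under the signal limit, and its part in the line differences was not tested.

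LEO1 was higher in KHOS than in U-2OS by 2.20 untransfected, 2.10 after nonspecific siRNA and 2.82 after CDK11 siRNA. The mean LEO1 difference was 2.37 (95% interval 1.92 to 2.83, limma adjusted p = 0.000332). Without the CDK11 siRNA arrays it was 2.15 (1.78 to 2.53). The smallest line differences were those of PAF1 (0.59, 0.28 to 0.90, limma adjusted p = 0.00875), CTR9 (0.59, 0.31 to 0.87, limma adjusted p = 0.00631) and RTF1 212302_at (0.66, 0.21 to 1.10, limma adjusted p = 0.0212). The call of RTF1 212302_at was lost under 4 of the alternative settings, with adjusted p from limma up to 0.114. RTF1 212301_at differed by 1.17 and RPRD1B by 1.10. The LEO1 interval lay above those of PAF1 and CTR9, and this difference between genes was not tested.

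The 4 RPRD1A probe sets were higher in KHOS by 1.71 (218209_s_at), 2.66 (222558_at), 1.99 (222559_s_at) and 1.85 (225953_at, interval 1.57 to 2.13, limma adjusted p = 0.000182). Without the CDK11 siRNA arrays these differences were 1.49, 2.27, 1.71 and 1.81 in the same order. RPRD2 was higher by 2.44 (212553_at), 3.22 (226527_at) and 1.85 (235415_at). CDC73 218578_at was higher by 1.27 (interval 0.95 to 1.59, limma adjusted p = 0.000753). The other CDC73 probe sets read at most 5.75 (235196_at) and 5.19 (229828_at) in U-2OS, and their measured differences were 3.54 and 4.34. The 5 probe sets that passed through KHOS alone were these 2, RPRD1A 222558_at and RPRD2 226527_at and 235415_at. Their differences are measured against U-2OS signals under the limit and are given without a test. Under the limit, RPRD1A 228566_at went the other way, with log2 signals of 5.83, 5.85 and 5.45 in KHOS, against 6.44, 6.11 and 6.18 in U-2OS. In a fit over all 54675 probe sets its line difference was -0.53, with a limma adjusted p of 0.0709. In the same fit the other member probe sets under the limit differed by 0.69 (RPRD1A 1555202_a_at), 0.11 (RTF1 230832_at) and -0.14 (RPRD1B 230801_at).

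**Figure D4:**
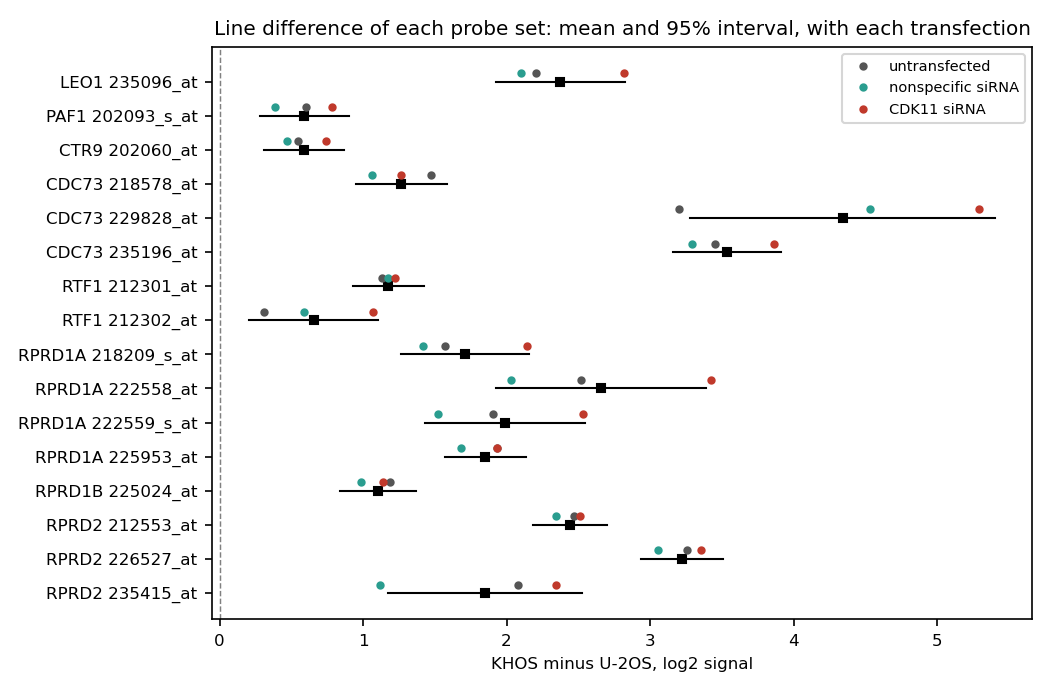
Log2 signal in KHOS minus U-2OS (x axis) for the 16 kept member probe sets (y axis), with the limma mean (square), its 95% interval (bar) and the difference within each of the 3 treatments (points). All points lie above 0, from the PAF1 and CTR9 means of 0.59 to the CDC73 229828_at mean of 4.34, which was measured against U-2OS signals under the limit. The bars of the 5 probe sets that passed the limit on KHOS arrays alone are drawn but carry no test.

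LEO1 and RPRD1A were chosen for a low value on the same CDK11 siRNA arrays, so their closeness over the 6 arrays (RPRD1A took place 3 of 8877 beside LEO1) follows from that choice and is no result. Likeness was the root mean square distance of log2 values centred within each line, taken at the brightest kept probe set of each gene. The nearest genes outside the members were DENND11 (0.193), MCM3, a subunit of the replicative helicase (0.195), URI1 (0.201), RASSF3 (0.205) and CTSZ, a lysosomal protease (0.215). For RPRD1A they were DENND11 (0.0554), CHERP (0.111), URI1 (0.122), NKAP (0.126) and SLC7A2, an amino acid transporter (0.131), and LEO1 took place 20 at 0.1998. DENND11 differed from nonspecific siRNA by -1.21 in KHOS and -1.56 in U-2OS. The other 6 members took places 1492 to 7715 in these orders, with RPRD1B nearest and CDC73 farthest. Near and far places alike depend on the choice of LEO1 and RPRD1A for low CDK11 siRNA values, so they are a description.

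A list of 66 further genes of polymerase II and elongation was set beside the members. Of these, 63 had a probe set and 56 passed the signal limit, with 99 probe sets. Against nonspecific siRNA, 0 of the 56 genes were lower and 1 was higher past the bound in KHOS, where 1.38% of all probe sets were past it in either direction. In U-2OS 1 was lower and 1 higher, where 1.87% of all probe sets were past it. In probe sets, these were 1 of 99 in KHOS and 2 of 99 in U-2OS. The list median was 0.077 in KHOS and 0.0072 in U-2OS. All 12 polymerase II subunits passed the signal limit and none was past a bound, with medians of -0.02 in both lines.

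AFF4, the scaffold of the super elongation complex, was the gene higher in KHOS. Its probe set 239439_at read 4.93 untransfected, 5.22 after nonspecific siRNA and 6.81 after CDK11 siRNA in KHOS, against 7.91, 8.11 and 8.33 in U-2OS. The AFF4 difference from nonspecific siRNA was 1.59 in KHOS and 0.22 in U-2OS, and from untransfected cells 1.88 in KHOS, where it was the only gene of the list past the bound. In U-2OS none was past it against untransfected cells. Both KHOS controls of 239439_at lay under the signal limit. Another AFF4 probe set, 232865_at, was past the bound in KHOS already with nonspecific siRNA against untransfected cells (1.17), and differed by 0.24 between CDK11 siRNA and nonspecific siRNA. AFF4 219199_at differed by 1.33 in KHOS, just short of the bound with a z-score of 2.95, and by 0.40 in U-2OS. Its KHOS controls (5.80 and 5.98) also lay under the signal limit. The brightest AFF4 probe set, 225229_at, differed by 0.96 and 0.37, inside the bounds. ELL2, an elongation factor of the same complex, was higher in U-2OS at 214446_at, which read 6.32, 6.24 and 7.36 in KHOS, against 5.55, 5.47 and 6.69 in U-2OS. The ELL2 difference from nonspecific siRNA was 1.12 in KHOS, inside the bound, and 1.22 in U-2OS, where both controls lay under the signal limit. The brightest ELL2 probe set, 226099_at, differed by 0.90 and 0.78. HEXIM1, an inhibitor of the elongation kinase CDK9, was lower in U-2OS at 202815_s_at, which read 6.80, 6.55 and 6.57 in KHOS, against 6.60, 6.57 and 5.43 in U-2OS. This probe set was above the signal limit only in untransfected KHOS cells. Its brighter probe set, 202814_s_at, differed by 0.05 in KHOS and 0.21 in U-2OS, so the lower value was not shared.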

How the data were processed

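RNA of KHOS and U-2OS cells was hybridized to Affymetrix U133 Plus 2.0 arrays, 1 array per group and 3 flasks pooled per array. The deposited values are log2 signals per probe set that the authors normalized with gcrma. The study's present and absent calls were not used here. Probe sets with a highest value above 100 (log2 6.64) were kept, 16397 of 54675. Per line, log2 differences between arrays were divided by their SD over the kept probe sets after subtraction of the mean, and a z-score past 3 was called, as in the study's methods. Lines were compared with limma 3.58.1 in R 4.3.3 (lmFit, eBayes, treatment as a block, Benjamini-Hochberg), which was first checked on simulated data. Other steps used Python 3.11.15 with pandas 2.3.3 and numpy 2.4.6. With 1 array per group, the number of arrays limits the precision.

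Of all probe sets, 41097 had 1 gene symbol, 1801 had several and 11777 had none; only those with 1 were named. Symbols came from the platform annotation and were updated by Entrez ID through RefSeq GRCh38.p14, and promoters came from RefSeq on the same build. Pathway genes that matched no probe set with 1 symbol, NELFA and NELFE among them, were not analysed here. Named were all members, the pathway genes past 3 SD against either control, SKIC8, and the 5 genes most like LEO1 and RPRD1A. Members and lists were chosen with earlier results of these data known. Alternatives were other signal limits, a robust z-score, a bound of 2 SD, repeated quantile normalization, 1 value per gene, other variance settings and fits without each treatment.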

Additional observations from a re-analysis of the deposited data

Results flagged for a closer look

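HEXIM1 202815_s_at stood out because its sign differed between the 2 lines with CDK11 siRNA against nonspecific siRNA, with 0.019 in KHOS, close to no difference, and -1.14 in U-2OS. CDC73 229828_at did so against untransfected cells, with 0.24 for KHOS and -1.85 for U-2OS. Both probe sets lay under the signal limit on all 3 U-2OS arrays. With 1 array per group neither difference between the lines was tested.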

How the results depend on the processing

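The counts of member genes lower past the bound shifted by 1 under some settings. For CDK11 siRNA against nonspecific siRNA in KHOS the count was 2, and it was 1 with a signal limit of 50 (RPRD1A), with the brightest probe set per gene (LEO1) and with the mean of the probe sets per gene (LEO1). In U-2OS it was 2, and 3 with no signal limit, with a median-based z-score and with a bound of 2 SD, which added RPRD2. For nonspecific siRNA against untransfected cells in U-2OS it was 1, and 0 with the brightest probe set and with the mean per gene. For CDK11 siRNA against untransfected cells in KHOS it was 1, then 2 with no signal limit, with the median-based z-score and with 2 SD, and 0 with the brightest probe set and with the mean per gene. In U-2OS that count was 3, and 2 with the brightest probe set and with the mean per gene, which left out CDC73. In no setting did a member's call change sign. LEO1 and RPRD1A were lower in U-2OS with CDK11 siRNA against either control in every setting listed.

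All 16 member probe sets stayed higher in KHOS in every fit that included them. For the 5 that passed the signal limit on KHOS arrays alone, this was built into the selection. RTF1 212302_at alone lost its call, with limma adjusted p-values of 0.114 without the signal limit, 0.0532 after repeated quantile normalization, 0.0629 without the CDK11 siRNA arrays and 0.0674 without the nonspecific siRNA arrays. Repeated quantile normalization shifted the median line difference of all probe sets by -0.1175. With 1 array per group, the treatments could not be tested against each other within a line. The fit of the lines had the treatment as a block. Without this block the calls of the 11 probe sets that passed the limit in both lines held. Single arrays of pooled RNA limit every value.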
